A study of Mus musculus with 65 samples.

Results

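Single cells of the embryonic mouse brain were ranked by a radial glia score and the ends of the ranking were compared within each age group. The score of a cell was the mean deposited value of 7 radial glia genes (Fabp7, Vim, Nes, Slc1a3, Sox2, Pax6 and Hes5) minus the mean of 7 neuronal genes (Stmn2, Tubb3, Dcx, Gap43, Mapt, Neurod6 and Elavl3). In each of the 3 deposited tables the cells were sorted by score, split in 3 equal parts rounded down, and the upper part (the high-score set) was compared with the lower part (the low-score set). This placed 40 of all 65 cells in the comparison, 20 on each side. The cells were chosen by the deposited values of these 14 scoring genes, so their values are a description, and they were left out of all counts and lists.

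The cells came from embryos of the CD1 strain and were collected by Patch-seq, a method that aspirates 1 cell through a recording pipette and makes a library from it. The groups were wild-type E12 cells labelled with FlashTag (20 cells), wild-type E15 cells labelled with FlashTag (26 cells) and E15 progenitors placed in an E12 brain (19 cells, called transplanted here), whose host strain is not given in the sources used here. FlashTag is a fluorescent dye that marks cells dividing at the ventricle and the labels give every library the source neuronal progenitors. The labels name no animal, so the cells of a group may share an embryo, each group counts as 1 sample, and no standard error or p-value was made from cells and no genes were tested between the sets.

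Radial glia are the stem cells of the developing cortex. Their bodies line the ventricle, they are coupled by adherens junctions, and they divide to renew themselves or to give intermediate progenitors and neurons. Notch signalling holds them undifferentiated, and neurons that leave the ventricle replace the glial program with one for tubulin-rich processes, axon growth and vesicle release.

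Libraries held from 10928 to 4560871 reads, with a median of 148824 in E12, of 998629.5 in E15 and of 166134 in transplanted cells, so E15 libraries were the deepest. More than 8000 genes had a read in 16 libraries, of which 0 were E12, 11 E15 and 5 transplanted. The deposited numbers are log10 values centred for each gene over the 65 cells, from which 2 further directions over cells had been removed. Those directions held 74.5% of the variance in gene number per library and 41.3% of the variance in log10 reads.

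The high-score set held 6 E12, 8 E15 and 6 transplanted cells, and so did the low-score set. In E12 cells the last score inside the high-score set was 0.074 and the first outside it 0.066, while the low-score set ended at -0.258 and the next cell stood at -0.215. For E15 the corresponding values were 0.216 and 0.212 at the upper edge and -0.044 and -0.036 at the lower edge. Transplanted cells were separated at 0.217 and -0.048 above and at -0.242 and -0.189 below. A gap therefore set off the high-score set only in the transplanted group, and the other edges fell inside a run of close scores.

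The 14 scoring genes, in CPM (counts scaled to 1e6 per library), sorted the cells into glia and neurons only in part. Fabp7, a fatty acid binding protein of radial glia, ranged from 131.2 through a median of 977.9 to 19580 CPM in the high-score set. The low-score set ran from 20.13 through 1332 to 10940 CPM, so its median was the higher of the pair. Sox2, a stem cell transcription factor, had a median of 583.2 CPM in the high-score set and 216.7 CPM in the low-score set, and Vim, an intermediate filament, 979.6 and 672.3 CPM. Clearer gaps stood between the medians of Slc1a3 (89.6 and 5.93 CPM), Hes5 (88.21 and 5.13 CPM) and Nes (150.6 and 8.36 CPM). Among the neuronal genes they stood between those of Mapt (8.73 and 104.3 CPM) and Gap43 (24.82 and 205.6 CPM). These gaps are pooled, and some group means ran the other way. In E12 the mean was 66.86 and 28.19 CPM for Mapt and 111.4 and 46.78 CPM for Gap43. In transplanted cells it was 268.9 and 341.4 CPM for Nes. Stmn2, a microtubule regulator of growing axons, lay between 0.0 and 2105 CPM in the high-score set, with a median of 161.4 CPM. In the low-score set it lay between 0.0 and 2938 CPM, with a median of 478.1 CPM. Dcx, a microtubule protein of migrating neurons, had medians of 8.84 and 8.72 CPM, with a read in 13 of 20 high-score and 11 of 20 low-score cells.

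**Figure D1:**
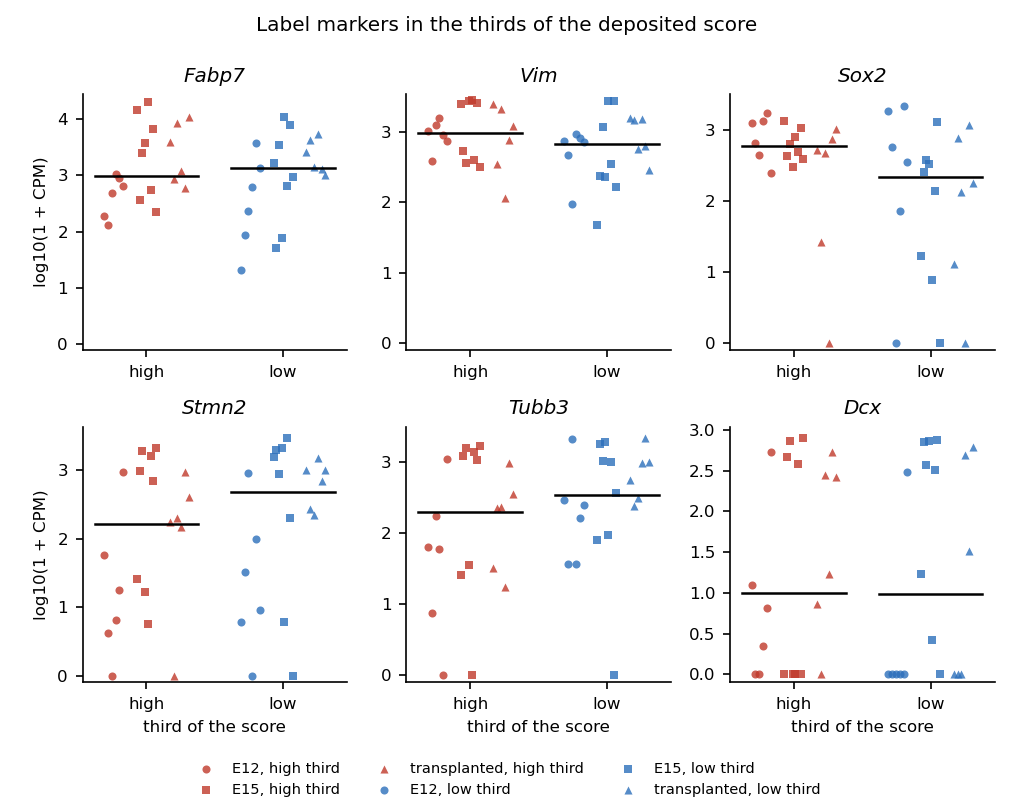
CPM of the 6 label markers on the scale log10(1 + CPM), 1 point per cell, for the 20 cells of the high-score set (red) and the 20 of the low-score set (blue), with circles for E12, squares for E15, triangles for transplanted cells and a bar at the median of each set. All 6 genes overlap between the sets, and the median of Fabp7 is lower in the high-score set (977.9 against 1332 CPM).

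On the deposited scale itself the scoring genes differed by small amounts. A difference here is the mean deposited value of the high-score set minus that of the low-score set, in log10 units. Among the glial genes it ran from 0.18 for Fabp7 and Vim to 0.55 for Slc1a3, a glutamate transporter, and among the neuronal genes from -0.08 for Dcx to -0.60 for Neurod6, a transcription factor of cortical neurons. In E15 cells Stmn2 differed by -0.005 and Tubb3, a neuronal tubulin, by 0.041. Of the E15 libraries of the high-score set, 4 had more than 8000 genes each. Their Stmn2 levels were 978.4, 1914, 1623 and 2105 CPM and their Dcx levels 457.2, 731.8, 385.1 and 785.8 CPM. The other 4 E15 cells of that set had Stmn2 at 25, 15.83, 4.585 and 698.8 CPM and Dcx at 0.0 in all 4. The cell at 698.8 CPM of Stmn2 also had 1048 CPM of Tubb3, close to the 1197 CPM of the lowest many-gene library. Gene number thus did not divide these cells cleanly by neuronal reads. That cell's library held only 11449 reads, so its CPM rest on few reads. The sets are called by their score from here on, without a cell type name.

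The share of each score and gene that lay in the 2 removed directions was measured. When the same 14 genes were scored on log10(1 + CPM), from read counts recovered out of the deposited values, 78.0% of the variance of that score over the 65 cells lay in the removed directions. For single genes the share was 55.3% for Stmn2, 53.5% for Dcx and 50.1% for Tubb3, against 47.7% for Vim, 21% for Fabp7 and 1.3% for Neurod6. It was 83.4% for the summed neuronal cytoskeleton genes, 71.2% for the summed apical progenitor genes and 19.6% for the summed synaptic and vesicle genes, all as log10 of summed CPM. The deposited score and the CPM score were related by a Spearman rho of 0.34 in 20 E12 cells, 0.58 in 26 E15 cells and 0.52 in 19 transplanted cells, both scores coming from the same libraries. Of the 20 cells of the deposited high-score set, 10 were also in the high-score set of the CPM score and 4 were in its low-score set. Of the 20 cells of the low-score set, 9 were in the CPM low-score set and 2 in the CPM high-score set.

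**Figure D2:**
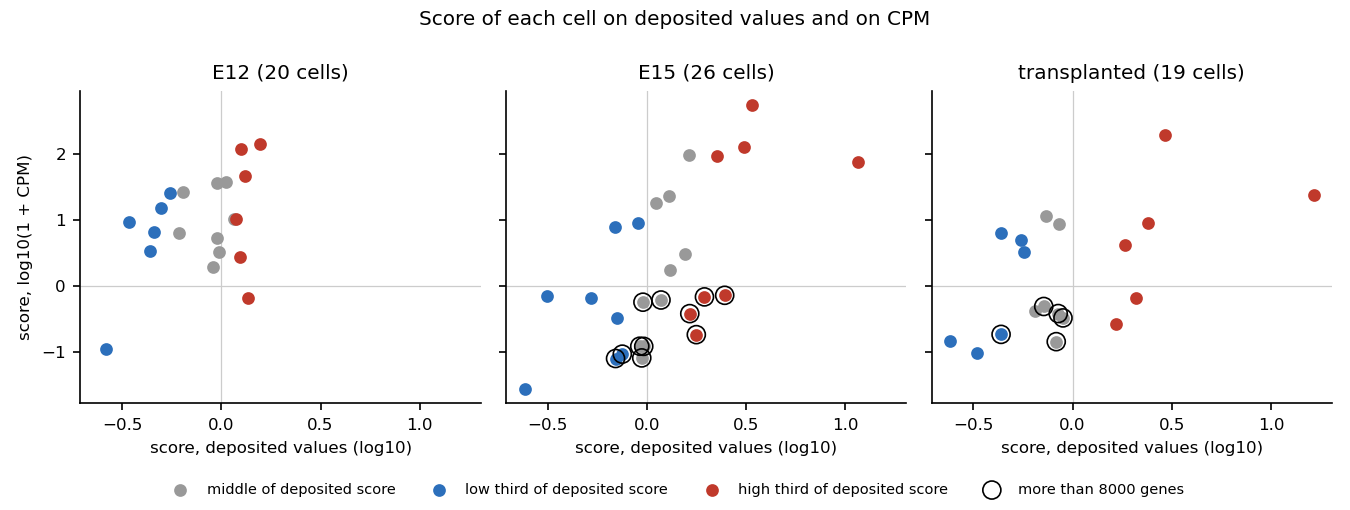
Score of each cell on deposited values (x axis, log10 units) against its score on log10(1 + CPM) (y axis), by group, coloured by set of the deposited score, with a ring around the 16 libraries above 8000 genes. In E15 the 8 cells of the deposited high-score set split into 4 with a CPM score of 1.87 or more and 4 ringed libraries with a CPM score below 0.

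Outside the scoring genes few genes separated the sets on the deposited scale. A difference of 0.3 is 2-fold on this log10 scale but need not be 2-fold in mean CPM. The scoring gene Sox2 differed by 0.416 with a log2 ratio of mean CPM of 0.51. A gene was called where its difference was at least 0.3 with the same sign in all 3 groups. By this rule 229 of 10393 genes (2.20%) were higher and 92 (0.885%) were lower in the high-score set, 3.09% in either direction, and the median difference of all genes was 0.03. The counts depended on the scale, since the same sets gave 1339 higher and 246 lower on log10(1 + CPM) and 1078 and 488 by the log2 ratio of mean CPM. Genes higher in all 3 groups made up 15.3% of the genes and genes lower in all 3 made up 9.4%.

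Genes with the largest excess in the high-score set were named by a rule of size, detection and stability over pools. Ctsd, which encodes the lysosomal protease cathepsin D (chromosome 7, 142375911 to 142388038, GRCm38), ranged from 62.29 through a median of 437.6 to 7043 CPM in the high-score set. Its low-score cells ran from 0.0 through 123.3 to 1744 CPM. The difference was 0.64 in deposited units, and it was 0.56 in E12, 0.60 in E15 and 0.77 in transplanted cells. All high-score cells had a read of Ctsd, and all but 4 of them lay inside the range of the low-score set.

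Apoe, the lipid carrier made by glia and macrophages (chromosome 7, 19696109 to 19699188), had medians of 392.1 CPM in the high and 97.62 CPM in the low-score set, with maxima of 16870 and 1264 CPM. Its difference of 0.60 was carried by E15 (0.66) and transplanted cells (1.06), and E12 cells gave 0.06. Transplanted cell 8 held the maxima of both Ctsd and Apoe, and it also held 27040 CPM of microglia genes, the most of the 65 cells, and 39220 CPM of erythroid genes. Without that cell the differences were 0.59 for Ctsd and 0.55 for Apoe. The other high-score cells above the low-score range of Ctsd were E15 cells 15 and 22 and transplanted cell 18. They held 8211, 13410 and 8553 CPM of microglia genes. The low-score maxima of Ctsd and Apoe lay in E15 cells 10 and 4, with 9390 and 7364 CPM of microglia genes. The part of microglial reads in these 2 differences was not tested. Gnaq, the alpha subunit of a G protein that activates phospholipase C (chromosome 19, 16132831 to 16387463), had a read in 17 of 20 high-score and 11 of 20 low-score cells, with medians of 112.7 and 1.67 CPM and a difference of 0.60. Mthfd2, a mitochondrial enzyme of one-carbon metabolism (chromosome 6, 83305691 to 83325908), had medians of 168.3 and 9.62 CPM and a difference of 0.54. For both genes the highest low-score cells, at 131.3 CPM for Gnaq and 369.1 CPM for Mthfd2, lay above the median of the high-score set.

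Other genes named on the high side included regulators of transcription and chromatin. Ncor1, a nuclear receptor corepressor, had median levels of 289.8 and 150.4 CPM in the high and low-score set. Rela, a subunit of NF-kappaB, had mean levels of 162.9 and 27.81 CPM, and Chd6, a chromatin remodeller, 244.3 and 102.9 CPM. The histone deubiquitinase gene Mysm1 had means of 337.0 and 18.98 CPM. Single high-score cells weighed on these means. The highest were E12 cell 1 for Rela (1009 CPM) and E15 cell 18 for Chd6 (1781 CPM). For Mysm1 they were transplanted cells 16 (3049 CPM) and 8 (1378 CPM). Rlbp1, a retinaldehyde binding protein found in radial glia, had a read in 15 and 11 of 20 cells, with a difference of 0.51 and mean levels of 198.6 and 94.95 CPM.

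On the low side of the score, Syf2, a splicing factor (chromosome 4, 134930898 to 134937548), had medians of 51.1 CPM in the high and 185.0 CPM in the low-score set and a difference of -0.59, with -0.52, -0.59 and -0.67 in E12, E15 and transplanted cells. Isyna1, the enzyme that makes inositol phosphate from glucose phosphate (chromosome 8, 70594373 to 70597290), had a read in 9 of 20 high-score and 16 of 20 low-score cells. Its medians were 0.0 and 114.2 CPM and its difference -0.58. Rprm, a p53 target that can arrest the cell cycle in G2 (chromosome 2, 54084093 to 54085552), had medians of 57.48 and 257.5 CPM, and Pard6a, a polarity protein (chromosome 8, 105701148 to 105703496), 0.0 and 35.69 CPM. All 6 E12 cells of the low-score set had between 260.8 and 344.7 CPM of Rprm, whereas the E15 cells of that set spread from 0.0 to 2553 CPM. In each of the 4 genes some cells of both sets had no read.

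**Figure D3:**
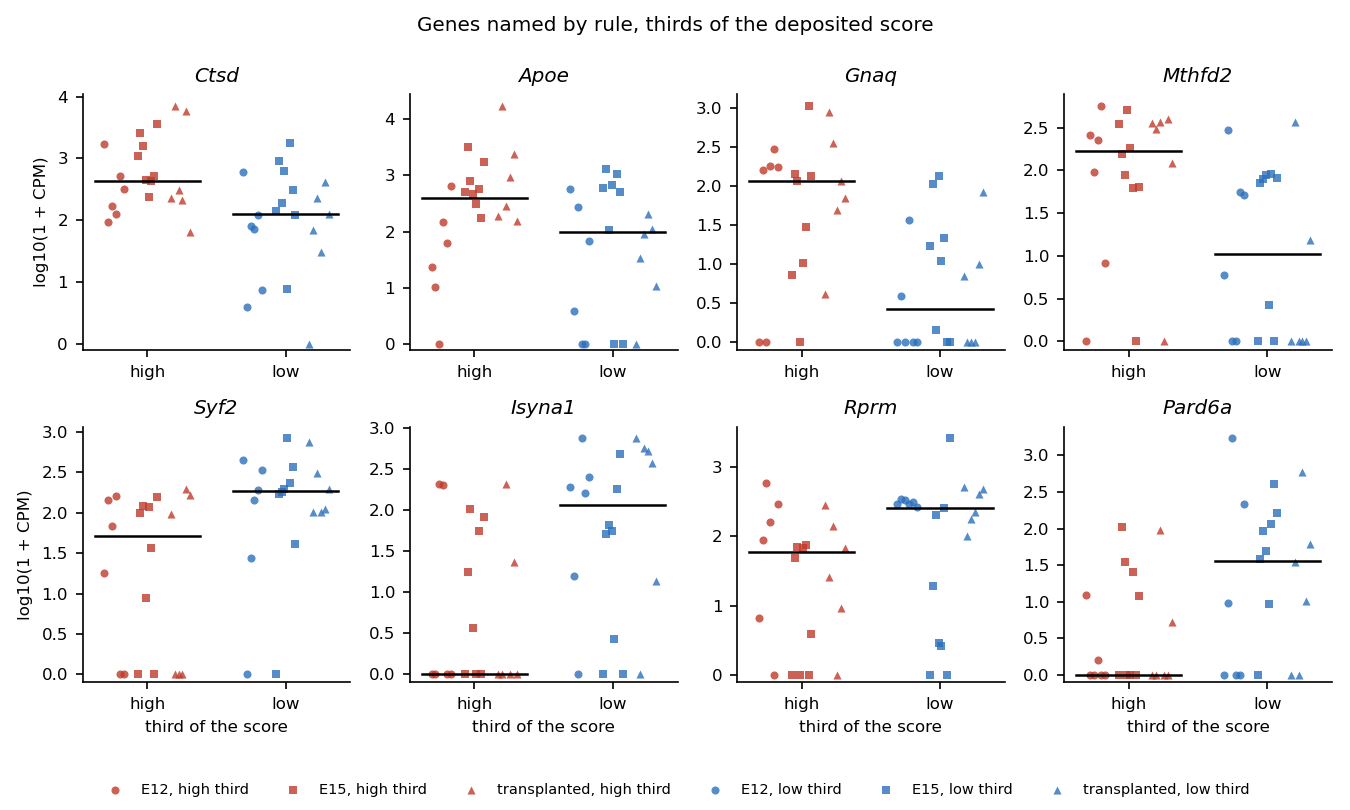
CPM on the scale log10(1 + CPM) of 4 genes named on the high side (upper row) and 4 on the low side (lower row) in the sets of the deposited score, 1 point per cell, with circles for E12, squares for E15, triangles for transplanted cells and a bar at the median. The sets overlap for all 8 genes, and the bars of Isyna1 and Pard6a lie at 0 in the high-score set.

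Gene lists of radial glia and neurons moved little between these sets. Each list counts the members with a read in at least 20% of the 65 cells. Of all 10210 genes kept by the same filter 6041 were higher and 4169 lower in the high-score set, with a median difference of 0.03. Among the 34 other apical progenitor genes, 21 had a higher and 13 a lower mean, and the list had a median difference of 0.09. Those called higher were Tox3 (0.50), Ptprz1 (0.42), Mfge8 (0.37) and Dbi (0.33), and Id4 was called lower (-0.36). Over all genes 2.20% were called higher and 0.885% lower. By group the median of the list was -0.05 in E12, 0.06 in E15 and 0.18 in transplanted cells, and without transplanted cell 8 it was 0.04 over all groups. Late progenitor and astrocyte genes had a median of 0.10, and Apoe alone of 18 was called.

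The 29 neuronal cytoskeleton genes had a median of -0.06 with Stmn3 (-0.35) called lower, beside 0.885% of all genes called lower. The 32 synaptic and vesicle genes had a median of -0.03 with 0 called. Snap25, a membrane fusion protein of synaptic vesicles, missed the size at -0.297. Transcription factors of cortical neurons were split, 15 of 27 being higher, and Tbr1, which specifies deep-layer neurons, was called lower (-0.31). Tbr1 had a read in 2 of 20 high-score and 8 of 20 low-score cells. L1cam, an axonal adhesion molecule, was called lower at -0.34, with a read in 4 and 13 of 20 cells.

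Of 19 intermediate progenitor genes 16 were lower and 3 higher in the high-score set, beside 4169 lower and 6041 higher of all 10210 genes. The list had a median of -0.17, although 0 reached a call. Eomes, the transcription factor that defines these cells, differed by -0.23 and Sstr2, a somatostatin receptor, by -0.25, with -0.21, -0.31 and -0.22 in the 3 groups. Dll3, a Notch ligand, differed by -0.33 overall but by -1.09 in E12, 0.07 in E15 and -0.10 in transplanted cells, with 1 low-score cell at 4577 CPM. Eomes had a read in 8 high-score and 10 low-score cells of 20.

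Signalling, cycle and metabolic lists showed small shifts. Hey1, a Notch effector, was the only called member of 24 Notch genes (0.40), and Hes1, another effector, ran from -0.34 in E12 to 0.57 in E15. Of 53 DNA replication genes Orc6 (0.43) and Gins1 (0.31) were called higher beside 2.20% of all genes, with a list median of 0.04, and Gins1 stood at -0.10 when the cells were ranked by the CPM score. Of 67 genes of G2 and mitosis Kif4 (0.43), Arl6ip1 (0.39) and Kif22 (0.32) were called higher. Cks1b (-0.38) was called lower, beside 0.885% of all genes. The list medians were -0.21 in E12 and 0.18 in E15 cells. Of 18 genes of serine and one-carbon metabolism Mthfd2 and Mthfd1 (0.37) were called higher. The 59 cytosolic ribosomal genes and 50 respiratory chain genes each had a median of -0.01.

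Markers of other cell types moved with the sets as well. Of 21 microglia and macrophage genes 20 were higher in the high-score set, beside 6041 of all 10210 genes, with a median of 0.15 and 0 called. By group the median was -0.10 in E12, 0.15 in E15 and 0.33 in transplanted cells, and without transplanted cell 8 it was 0.11 over all groups. Their summed level ranged from 0.0 through 625.5 to 27040 CPM in the high-score set and from 0.0 through 348.6 to 9390 CPM in the low-score set, with a read of all 21 genes in both. Summed ventral and interneuron genes had medians of 1373 and 824.7 CPM, and summed erythroid genes 1009 and 3057 CPM. The number of genes detected had medians of 5055 and 3841.5, and 4 and 3 cells of the sets had more than 8000 genes. The part of these measures in the gene differences was not tested.

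The same 14 genes were also used to rank the cells on log10(1 + CPM), a comparison chosen after seeing the data. Its high-score set had all 7 glial scoring genes at a higher mean CPM, among them Fabp7 (6176 against 805.3 CPM), Vim (1908 against 464.2 CPM) and Sox2 (609.6 against 350.6 CPM). All 7 neuronal scoring genes were at a lower mean CPM, among them Stmn2 (114.1 against 1335 CPM), Tubb3 (223.8 against 1142 CPM) and Dcx (48.15 against 433.5 CPM). These means are pooled, and in E12 some ran the other way. There the high and low-score means were 1170 and 2143 CPM for Pax6 and 47.57 and 68.93 CPM for Slc1a3. For Elavl3 they were 92.39 and 62.36 CPM. The values of the scoring genes chose the cells and support nothing. Differences from here on are of mean log10(1 + CPM), called by the same size and sign rule.

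The CPM ranking also sorted libraries by their number of genes. Of its 20 low-score cells 9 had more than 8000 genes, and of its 20 high-score cells 0 had. Median reads were 110475 in the high and 777578 in the low-score set, and 5 and 1 libraries held under 50000 reads. A count or median of 0 in the high-score set therefore does not show that a gene was absent. The median number of genes was 4392.5 in the high and 6018.5 in the low-score set, and the Spearman rho of the CPM score with genes detected was 0.46 in 20 E12, -0.64 in 26 E15 and -0.21 in 19 transplanted cells. By the call rule 460 genes (4.43%) were higher and 1221 (11.7%) lower in the high-score set, 16.2% in either direction, with a median over all genes of -0.14. Ranked anew among the 49 cells with at most 8000 genes, 1290 (12.4%) were higher and 449 (4.32%) lower, 16.7% in either direction, with a median of 0.11. By group the median over all genes in the CPM ranking was 0.29 in E12, -0.48 in E15 and -0.14 in transplanted cells, and the list medians by group are to be read against these. The balance of directions was not stable. It also turned with these libraries kept, to 1393 higher and 806 lower by the log2 ratio of mean CPM and to 1026 and 580 after thinning to 25000 reads.

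Genes of apical progenitors outside the score were higher in the high-score set of the CPM ranking. Of 34 such genes 31 were higher, 17 were called higher, beside 4.43% of all genes, and 0 were called lower. The median difference was 0.40 beside -0.14 for all genes. The median was 0.48 in E12, 0.81 in E15 and 0.47 in transplanted cells, and 0.52 when the cells were ranked anew without libraries above 8000 genes. Their summed level ran from 6416 through a median of 15820 to 33940 CPM in the high-score set and from 1262 through 4353 to 15150 CPM in the low-score set.

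Aldoc, a glycolytic aldolase of radial glia and astrocytes (chromosome 11, 78322968 to 78327781), ran from 0.0 through a median of 1061 to 3537 CPM in the high-score set. In the low-score set it ran from 0.0 through 9.34 to 1941 CPM, and the difference was 1.75. Mfge8, a secreted bridging protein of radial glia (chromosome 7, 79133768 to 79149060), had medians of 387.5 and 1.44 CPM, with a low-score maximum of 116.0 CPM and a difference of 1.57. Lpar1, a lysophosphatidic acid receptor (chromosome 4, 58435255 to 58553898), had medians of 162.9 and 0.0 CPM and a low-score maximum of 17.2 CPM. Hopx, a homeodomain protein of radial glia (chromosome 5, 77086988 to 77115121), had medians of 85.21 and 0.0 CPM and a difference of 1.21. Among transplanted high-score cells only cell 2 (105.5 CPM) and cell 10 (40.15 CPM) had a read of Hopx. Some high-score cells had no read of any given one of these 4 genes, so the sets overlapped at 0.

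Neuronal genes outside the score were lower in the high-score set. Of 29 cytoskeleton genes 28 were lower and 11 called, beside 11.7% of all genes called lower. The list median was -0.45, and by group it was 0.01 in E12, -0.90 in E15 and -0.50 in transplanted cells. Of 32 synaptic and vesicle genes 17 were called lower, with a median of -0.63, and Syt11 (0.35) was called higher. Ranked anew without libraries above 8000 genes, the medians were -0.20 and -0.31, with 6 and 13 genes called lower, beside 4.32% of all genes.

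Stmn3, a microtubule regulator of the stathmin family (chromosome 2, 181306459 to 181314500), had a median of 43.24 CPM in the high and 1071 CPM in the low-score set, with maxima of 490.8 and 2104 CPM. Nefm, a neurofilament subunit (chromosome 14, 68082590 to 68124846), had medians of 0.0 and 81.39 CPM and a difference of -1.34. Over all genes 11.7% were called lower and 4.43% higher. Among 27 transcription factors of cortical neurons 7 were called lower, among them Myt1l (-1.16), and Pou3f3 (0.94), Nfia (0.45) and Pou3f2 (0.34) were called higher. These 3 factors are also made by progenitors.

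**Figure D4:**
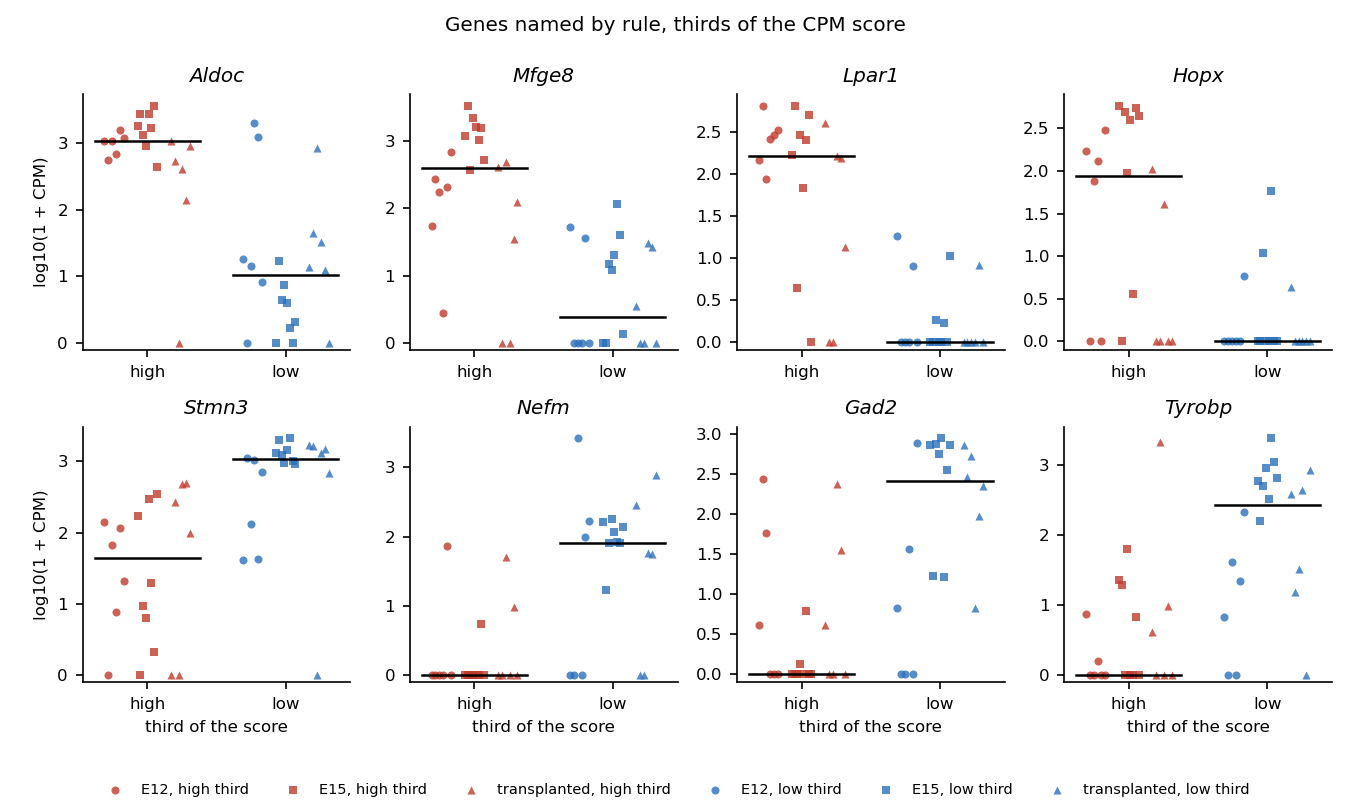
CPM on the scale log10(1 + CPM) of genes named on the high side and on the low side of the CPM ranking, 1 point per cell, with circles for E12, squares for E15, triangles for transplanted cells and a bar at the median of each set. For Aldoc the bars stand at 1061 and 9.34 CPM, and for Stmn3 at 43.24 and 1071 CPM.

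Of 53 DNA replication genes 45 were higher in the high-score set of the CPM ranking and 12 called. Over all genes 4.43% were called higher and 11.7% lower, with a median of -0.14. The list had medians of 0.90 in E12, -0.15 in E15 and 0.30 in transplanted cells, and of 0.44 over all groups without libraries above 8000 genes. By the log2 ratio of mean CPM the list medians were 1.27, 1.09 and 1.39. The sign in E15 thus turned with the measure, although -0.15 already stood above the median of all genes in E15. Mcm4, a subunit of the replicative helicase, differed by 1.19. The 67 genes of G2 and mitosis gave 4 calls on the high and 7 on the low side, shares near the 4.43% and 11.7% of all genes. Their list median was -0.16, or 0.18 without those libraries. Of 18 serine and one-carbon genes 6 were called higher, among them Phgdh (0.76) and Psat1 (0.56), enzymes of serine synthesis.

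Markers of other cell types moved with the CPM ranking. Of 24 ventral and interneuron genes 14 were called lower, beside 11.7% of all genes. Their summed level ran from 7.95 through 496.2 to 3772 CPM in the high-score set and from 57.34 through 2914 to 7446 CPM in the low-score set. Dlx6, Isl1, Slc32a1, Erbb4 and Prox1 were at 0 in all 20 high-score cells, whose libraries were shallower at the median (110475 against 777578 reads). Gad2, an enzyme of GABA synthesis (chromosome 2, 22622205 to 22693874), differed by -0.08 in E12, -2.30 in E15 and -1.45 in transplanted cells. All 21 microglia genes were lower and 16 called, with a summed level from 0.0 through 42.47 to 27040 CPM in the high-score set and from 9.94 through 1709 to 13410 CPM in the low-score set. Tyrobp, an adaptor of myeloid receptors (chromosome 7, 30413760 to 30417585), had medians of 0.0 and 268.9 CPM. Without libraries above 8000 genes the list medians were -0.31 and -0.42. In that ranking 4 of 5 erythroid genes were called lower, beside 4.32% of all genes. Their list median was -0.72, with summed medians of 792.5 CPM in the high and 11240 CPM in the low-score set. The part of these cell types and of library size in the gene differences was not tested.

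**Figure D5:**
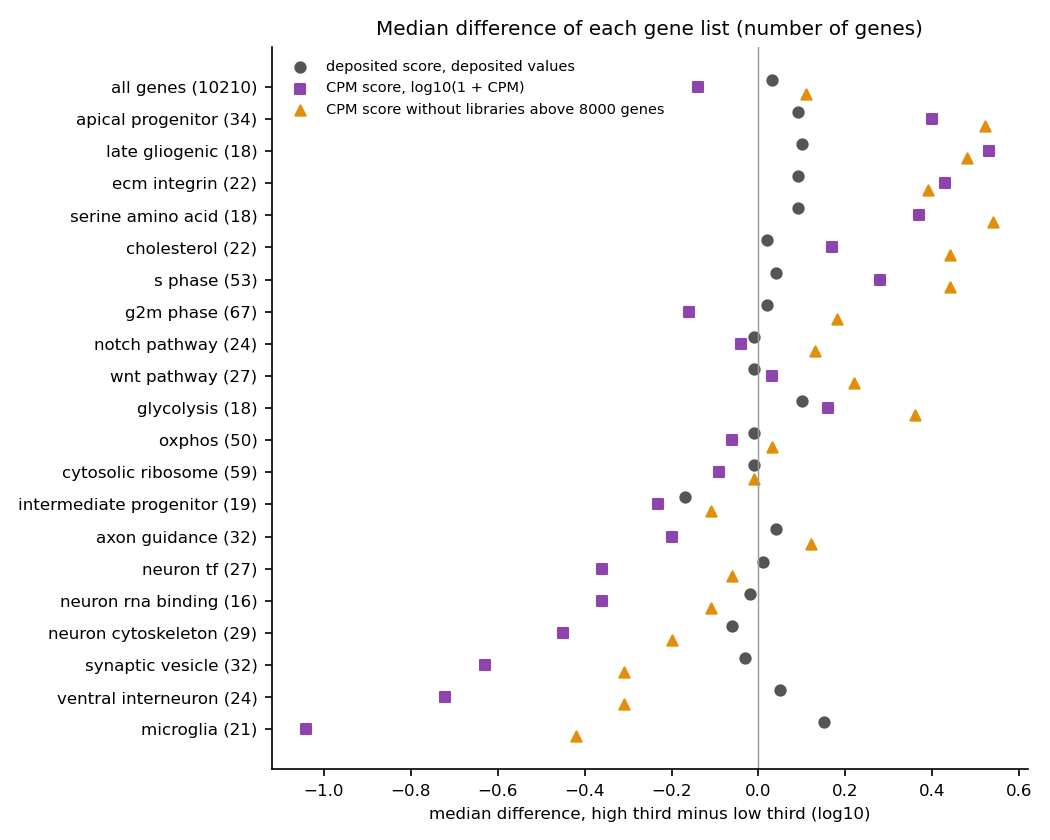
Median difference (x axis, log10 units) of each gene list, with its number of genes, for the deposited score (circles), the CPM score (squares) and the CPM score ranked anew without libraries above 8000 genes (triangles). Apical progenitor genes stand at 0.09, 0.40 and 0.52, and synaptic and vesicle genes at -0.03, -0.63 and -0.31.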

How the data were processed

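Single-cell libraries were made with a SMART-Seq v4 3' DE kit and Nextera XT, per the labels' protocols. STAR, HTSeq and the mm10 build are named, without versions, in the submitters' processing notes. The deposited values are log10 values of scaled read counts, and tests on the values showed that they had been centred per gene and that 2 directions over cells had been removed. Whole read counts were recovered for 10407 genes, with 356667 values above 0 whole within 0.01, and CPM were computed over these genes. The recovery was tested on simulated data. Members, lists and rules were chosen with earlier results of these data known.

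A gene was called where the difference was at least 0.3 with 1 sign in all 3 groups. Lists kept genes with a read in at least 20% of cells. Named genes were the 15 largest called per direction with a read in at least 40% of cells and a mean of at least 20 CPM in the higher set, a log2 ratio of mean CPM of at least 1 and a sign stable over pools, plus list members chosen by level and size. Gene positions are from GENCODE on GRCm38. The Cajal-Retzius list had no gene in the tables. Alternatives changed the pseudocount, size, share of cells, score, depth, pools and groups. The value of 1 list member is not reported here.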

Additional observations from a re-analysis of the deposited data

Results flagged for a closer look

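In 2 groups of cells 1 score stood apart from the rest of its set. The deposited score of E15 cell 21 was 1.07, and its gap to the next cell was 0.633 of the range, above the critical 0.526. That library held 11449 reads. The deposited score of transplanted cell 8 was 1.22, with a gap of 0.749 of the range, above the critical 0.625, and its library held 39900 reads. It also held 27040 CPM of microglia genes and 39220 CPM of erythroid genes. Both ends of the 6 sets were checked. The limit, which chance passes in about 1 in 20 groups of a normal sample, does not hold that rate here, because the sets are ends of a ranking by this same score, so the gaps are a description.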

How the results depend on the processing

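For the sets of the deposited score, 229 genes were higher and 92 lower. The counts were 1078 and 488 by log2 ratio with a pseudocount of 1 CPM, 753 and 360 with 10 CPM, 10 and 7 at a size of 0.5, and 73 and 22 for upper against lower 50% of cells. Upper against lower 25% of cells gave 170 lower. They were 360 and 156 without libraries above 8000 genes, 382 and 194 when ranked anew without them, 1106 and 341 after thinning to 25000 reads, 1339 and 246 on log10 CPM, and 61 and 23 with the CPM score. Without the E12, E15 or transplanted table they were 573 and 193, 590 and 398, and 364 and 215. Without pools B and E 157 and 144 were lower. Leaving out 1 cell gave 206 to 274 higher and 85 to 109 lower. For the CPM ranking (460 and 1221) the counts were 1393 and 806 with 1 CPM, 1131 and 600 with 10 CPM, 242 and 657 at 0.5, 2302 and 338 without libraries above 8000 genes, 1290 and 449 ranked anew, and 1026 and 580 thinned. The number higher was 194 for 50% of cells, 737 without libraries under 50000 reads, 2164 without E15, 749 without transplanted cells, and 251 and 772 without pools A and B. Without E12 4599 were lower. Leaving out 1 cell gave 344 to 563 and 1032 to 1366. Signs turned for the Shh, BMP and FGF list (-0.004 for 25% of cells, -0.015 with the CPM score), early temporal genes (0.027 thinned), cilium genes (-0.005 without E15, -0.004 without pool E), and, with the CPM score, cell cycle exit genes (-0.006), immediate early genes (-0.013), Rbm28 (-0.114), Dlg1 (-0.043) and Gins1 (-0.097). Other list medians near 0 also crossed it, among them glycolysis (lowest -0.013), stress response (-0.022), ion channel (-0.022) and G2 and mitosis (-0.062). Further single genes had both signs over the alternatives, among them Hes1 (-0.101 to 0.403), Lig1 (-0.526 to 0.138) and Cdk2 (-0.115 to 0.983). The cause was not tested. No paired analysis was possible because replicate numbers here only name cells in accession order. Pools occur on both sides and were left out in turn, and no comparison blocked by pool was made. Shallow libraries limit what a count of 0 shows.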

Other observations

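In the CPM ranking some members of signalling pathways were called although their lists stood near 0. The median difference was -0.04 for 24 Notch genes, 11 of them higher, and 0.03 for 27 Wnt genes, 15 of them higher. Both medians stood above that of all genes, -0.14. Calls on the high side numbered 3 and 4, beside 4.43% of all genes. Lfng, which modifies Notch receptors, differed by 0.77, Notch3 by 0.55 and Hey1 by 0.54, while the ligand Dll3 differed by -0.78. Of the Wnt genes Tcf7l1 (1.11), Sfrp1 (1.05) and Fzd8 (0.68) were called higher and Apc (-0.65) lower. Gas1 (1.07), Gli3 (0.89) and Smo (0.70), which act in Hedgehog signalling, were called higher. The list of 25 Shh, BMP and FGF genes had a median between 0.041 and 0.403 over the alternative settings of this ranking.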
